A study of Mus musculus with 4 samples.

Results

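The genes described here encode the respiratory chain, the series of protein complexes in the inner mitochondrial membrane that pass electrons to oxygen, together with the ATP synthase. Members were taken by symbol: those starting with Ndufa, Ndufb, Ndufc, Ndufs, Ndufv, Sdh, Uqcr, Cox4 to Cox8, Atp5 or mt-, with at least 10 UMIs (unique molecular identifiers, 1 for each captured transcript) over barcodes of at least 6500 UMIs. This gave 107 of 32285 measured genes, out of 111 symbols with these prefixes. They comprised 82 nuclear genes for subunits, 12 nuclear genes for assembly factors and 13 genes of the mitochondrial genome. Of the 4 symbols left out, Cox7b2, Cox8b and Cox8c had no UMI and Ndufa4l2 had 4 UMIs, while the lowest members inside the limit were Cox4i2 with 175 and Cox6a2 with 176 UMIs.

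The cells were cultured CD8+ T cells from gBT-I.CD45.1 transgenic mice, whose T cell receptor recognises a herpes simplex virus peptide (gB498-505). Spleen cells were activated with B6 splenocytes carrying that peptide and with LPS, and were then grown in IL-2. Butyrate cultures were given sodium butyrate, a short-chain fatty acid and histone deacetylase inhibitor, at 0.5 mM from day 3 to day 5, and control cultures were given PBS. On day 6 the living CD8+Vα2+ cells were purified by flow cytometry and put through 10x 3′ v3.1 capture, giving 2 libraries per group, all of batch 1. The library names in the labels give the same 2 mice in both groups, so p-values measure the spread between cultures of 2 animals, for which the labels give no age or sex. Everything below therefore concerns activated, dividing T cells in culture, 1 day after treatment ended. The comparison asks how butyrate treatment left the transcripts of each complex, and of each genome, relative to control.

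Complex I takes electrons from NADH and complex II from succinate. Both hand them to coenzyme Q, complex III passes them on to cytochrome c, and complex IV passes them to oxygen. Complexes I, III and IV pump protons, and complex V, the ATP synthase, uses the proton gradient to make ATP. Complexes I, III, IV and V combine subunits encoded in the nucleus with subunits encoded on mitochondrial DNA, whereas complex II is encoded in the nucleus alone. Activated T cells are known to use both glycolysis and this chain, and memory T cells to rely more on the chain.

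The control libraries totalled 64388093 and 74891790 UMIs and the butyrate libraries 76522004 and 74844548, from which 2059, 2632, 2560 and 2664 cells were kept, with medians of 20494 to 24816 UMIs a cell. Before cells were filtered, 23.8 and 21.7% of control barcodes with at least 1000 UMIs had more than 10% mitochondrial UMIs, against 8.25 and 8.77% in butyrate, so the limit on mitochondrial UMIs removed 217 and 295 control cells but 63 and 92 butyrate cells. Library pairs shared 1 to 6 kept barcodes. All 11 CD8 T cell markers checked were present, and their summed level was 9137 and 9339 CPM (UMIs per 1000000 of a library's TMM-scaled total) in control and 11700 and 12340 in butyrate. The difference lay in Trbc2, at 5010 and 5138 CPM against 7880 and 8199; the other 10 summed to 4127 and 4201 CPM in control and 3818 and 4141 in butyrate. Markers of other cells were low but moved with treatment. The 7 B cell markers summed to 136 and 139 CPM in control and 48.5 and 48.9 in butyrate, with Pax5 at 0. That difference came almost wholly from Ighm, at 129 and 133 CPM against 40.01 and 39.3, while Cd79b was at 6.22 and 5.71 CPM against 7.94 and 8.89. The 9 myeloid markers summed to 1.38 and 2.14 CPM against 5.33 and 6.29, with C1qa, C1qb, Adgre1 and S100a9 at 0 and most of the difference in Itgam (0.147 and 0.312 against 3.76 and 4.28), and the 8 dendritic markers to 1.51 and 2.07 CPM against 5.90 and 7.03, with Clec9a and Siglech at 0. The 7 NK markers summed to 92.7 and 123 CPM against 135 and 164. Most of that difference lay in Tyrobp, at 2.99 and 2.16 CPM against 33.9 and 40.3. Klrb1c also rose, whereas Eomes went the other way, at 52.1 and 60.5 CPM against 40.8 and 48.3. The 5 CD4 or regulatory T cell markers summed to 67.6 and 62.4 CPM against 89.5 and 109. Most of that difference lay in Ctla4, at 59.96 and 55.4 CPM against 78.6 and 98.7, while Cd40lg was lower, at 0.918 and 0.476 CPM against 0.264 and 0.312. The 5 erythroid or platelet markers summed to 0.147 and 0.238 CPM against 0.792 and 0.625, with Pf4 and Ppbp at 0. The part of these cells and of damaged cells in the results below was not tested.

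Nuclear and mitochondrial transcripts of the chain moved in opposite directions. Of the 82 nuclear subunit genes, 56 were higher and 10 were lower after butyrate at an adjusted p under 0.05 (edgeR, Benjamini-Hochberg over 13487 genes), with 16 not passing, and their median log2 fold change was 0.26. Of the 13 mitochondrial genes, 1 was higher and 7 were lower, with a median of -0.16. Changes were frequent in the whole transcriptome: 71.8% of all tested genes were called, 36% higher and 35.7% lower, with a median of -0.0079. Among the 1270 genes averaging 100 CPM or more, 55.7% were higher and 26% lower, with a median of 0.16, so abundant genes as a whole leaned the same way as the nuclear subunits. The 2 groups did not overlap for 74 nuclear subunit genes and 12 mitochondrial genes, against 85.9% of all tested genes. With libraries scaled by their totals alone, which put the median of all genes at -0.21 and called 74.9% of them (25.2% higher and 49.8% lower), 34 nuclear subunits were higher and 25 lower, with a median of 0.065, and no mitochondrial gene was higher and 12 were lower. Changes below are on the TMM scale, which assumes that most genes did not change.

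**Figure D1:**
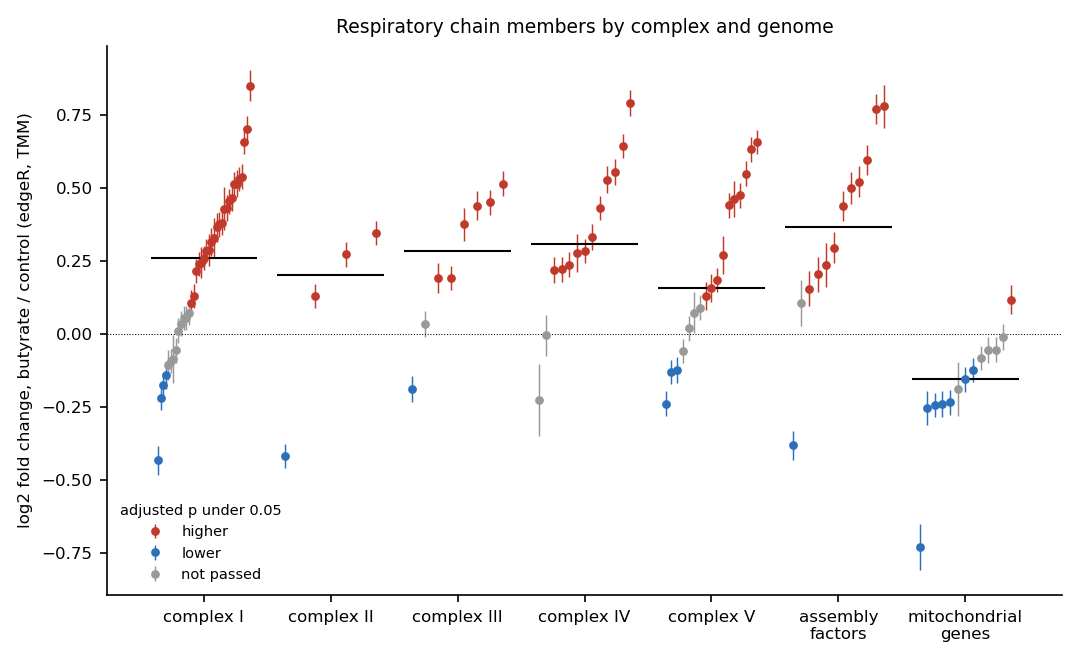
Log2 fold change of butyrate over control (vertical axis, edgeR with TMM scaling; bars are 1 standard error) for nuclear subunits of complexes I to V, nuclear assembly factors and mitochondrial genes, ordered within each group by size; colour gives the call and the black line the group's median. Cox4i2, Cox6b2 and Cox6a2 lie beyond the axis and are left out. Medians are above 0 for every nuclear group (complex V turns to -0.04 under library totals alone) and at -0.16 for the mitochondrial genes.

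In complex I, 24 of the 37 nuclear subunits rose and 4 fell, with a median of 0.26; with the mouse as a block Ndufa2 and Ndufa6, both accessory subunits, were also lower, at -0.11 and -0.09 (adjusted p = 0.0146 and 0.0395). Of the 30 accessory subunits, which surround the catalytic core and serve assembly and stability, 22 rose and 1 fell, with a median of 0.32. Of the 7 nuclear core subunits, which carry the flavin and iron-sulphur clusters of the electron path, 2 rose and 3 fell, with a median of 0.01; this difference between core and accessory subunits is a description with no test.

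The largest increase was that of Ndufb1-ps, an accessory subunit gene whose symbol carries a pseudogene suffix (ENSMUSG00000113902, chr12:101968090-101977068, minus strand, GRCm38). Its level was 206 and 204 CPM in control and 391 and 349 CPM in butyrate, a log2 fold change of 0.85 ± 0.052 (SE, adjusted p = 4.73e-09). Ndufb3, another accessory subunit of the membrane arm, was at 146 and 138 CPM in control and 236 and 227 CPM in butyrate (0.70 ± 0.045, adjusted p = 2.41e-09). Ndufab1, the mitochondrial acyl carrier protein, which also serves lipoate and fatty acid synthesis, went from 203 and 209 CPM to 328 and 320 CPM (0.66 ± 0.043, adjusted p = 2.63e-09). For these 3 genes every butyrate library lay above both control libraries, which the rule for naming them required.

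The largest decrease in complex I was that of Ndufs1, the largest iron-sulphur subunit, from 35.8 and 36.9 CPM in control to 27 and 26.9 CPM after butyrate (-0.43 ± 0.050, adjusted p = 1.44e-06). Ndufs1 lies opposite Eef1b2, a translation elongation factor gene that held 324734 UMIs against 7895 for Ndufs1. The sources used here do not give the strand setting of the counting, so reads of the pair may not be told apart. The same holds for some members that rose, such as Ndufb1-ps opposite Cpsf2 (72420 UMIs against 12934). Others are Ndufs6 opposite Mrpl36 (66321 against 22996) and the assembly factor Ndufaf3 opposite Impdh2 (7851 against 64131). Ndufs7, which carries the last cluster before coenzyme Q, fell from 206 and 207 CPM to 177 and 178 CPM (-0.22 ± 0.041, adjusted p = 0.000189). The core genes Ndufs1 and Ndufs7 were lower in each butyrate library than in either control, which the rule for naming them required. However, neither passed in cells without a UMI of Mki67 or Top2a, transcripts of dividing cells. There, Ndufs1 was at -0.10 (adjusted p = 0.71) and Ndufs7 at -0.05 (adjusted p = 0.736). In contrast, the core genes Ndufv1 and Ndufv2, of the NADH-oxidising tip, were higher at 0.26 ± 0.041 and 0.28 ± 0.042 (0.06 and 0.08, not passing, under library totals alone), and Ndufs3 did not pass at 0.01 ± 0.042.

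Complex II, succinate dehydrogenase, has 4 subunits, of which 3 rose and 1 fell. Sdha, the flavoprotein that oxidises succinate, was at 87.5 and 87.8 CPM in control and 66.4 and 64.8 CPM in butyrate (-0.42 ± 0.042, adjusted p = 3.77e-07). The membrane anchors rose: Sdhd went from 92.6 and 90.8 CPM to 117 and 116 CPM (0.35 ± 0.041, adjusted p = 2.08e-06), and Sdhc from 69.5 and 71.2 CPM to 84.6 and 85.4 CPM (0.27 ± 0.042, adjusted p = 3.46e-05). Sdhb, the iron-sulphur subunit, changed least (0.13 ± 0.041, adjusted p = 0.0102), and under library totals alone its value turned to -0.07; without control replicate 1 or butyrate replicate 2 its adjusted p was 0.0561 or 0.0689, and with a mitochondrial limit of 5% it was 0.179 (at 0.07). Under library totals alone Sdhc did not pass either, at 0.07 (adjusted p = 0.154). Replicates of the same group differed by less than 3 CPM for Sdha, Sdhc and Sdhd, far less than the distance between groups. The rule for naming these genes required that the groups lie apart.

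In complex III, 6 of 8 nuclear subunits rose and 1 fell, with a median of 0.28. Uqcrfs1, the Rieske iron-sulphur protein that takes the electron from the quinol, went from 163 and 170 CPM to 236 and 240 CPM (0.51 ± 0.042, adjusted p = 3.87e-08). The small subunits Uqcrh, the hinge protein near cytochrome c1, and Uqcr10 rose by 0.45 ± 0.043 (adjusted p = 1.88e-07) and 0.44 ± 0.049 (adjusted p = 1.21e-06). The large core proteins behaved otherwise. Uqcrc1 fell from 144 and 152 CPM to 127 and 132 CPM (-0.19 ± 0.045, adjusted p = 0.0015), and Uqcrc2 did not pass at 0.03 ± 0.043, with overlapping groups.

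In complex IV, cytochrome c oxidase, 13 of 16 nuclear subunits rose and 1 fell, with a median of 0.31, the highest of the complexes. Ndufa4, once placed in complex I, is counted here because its protein belongs to complex IV. Cox5a, a matrix-side subunit (ENSMUSG00000000088, chr9:57521274-57532426, plus strand), was at 664 and 708 CPM in control and 1170 and 1203 CPM in butyrate (0.79 ± 0.046, adjusted p = 7.54e-10). Cox7a2l, described elsewhere as helping to join complexes III and IV into supercomplexes, went from 209 and 207 CPM to 323 and 326 CPM (0.64 ± 0.042, adjusted p = 2.58e-09). That role was not tested in these cells. Cox7a2 went from 435 and 424 CPM to 647 and 614 CPM (0.55 ± 0.044, adjusted p = 2.69e-08). Ndufa4 did not pass: its 2 control libraries, at 264 and 311 CPM, lay on either side of the butyrate libraries at 288 and 286 CPM. Without control replicate 1 its value was -0.13 (adjusted p = 0.0391), and without control replicate 2 it was 0.11.

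Several complex IV subunits exist as a widely expressed form and a tissue-restricted form, and 3 of the 4 rarer forms measured, Cox4i2, Cox6b2 and Cox6a2, changed most. Cox4i2, the form described in lung and under low oxygen (chr2:152754173-152765037, plus strand), was counted 3 and 8 times in the control libraries and 84 and 77 times in the butyrate libraries. Its TMM-scaled rate was 13.9 times higher in butyrate (95% exact interval 7.55 to 28.4, counting error only; log2 fold change 3.77 ± 0.33, adjusted p = 6.93e-08). Cox6b2, the form described in testis (chr7:4751792-4753094, minus strand), gave 57 and 58 UMIs against 374 and 365 after butyrate, a rate 6.09 times higher (5 to 7.48; log2 fold change 2.60 ± 0.13, adjusted p = 2.15e-10). Cox6a2, the form of heart and skeletal muscle (chr7:128205435-128206387, minus strand), went the other way, from 72 and 93 UMIs to 3 and 6. Its rate was 19.3 times higher in control (9.95 to 43.1; log2 fold change -4.23 ± 0.33, adjusted p = 2.05e-08). Cox7a1, the other heart and muscle form, did not pass, at 167 and 200 UMIs against 159 and 172 (-0.23 ± 0.12, adjusted p = 0.113). Cox4i2 and Cox6a2 passed the filter on low counts only through the group where each is high. Their fold changes and p-values are therefore no independent support for a change.

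These rare forms remained a very small share of their subunit's transcripts in every library. Cox4i2 made up 0.0072 and 0.016% of the Cox4i1 and Cox4i2 UMIs in control and 0.127 and 0.118% in butyrate. Cox6b2 made up 0.217 and 0.189% of the Cox6b UMIs in control and 0.833 and 0.856% in butyrate, and Cox6a2 0.517 and 0.556% of the Cox6a UMIs in control and 0.016 and 0.032% in butyrate. The common forms Cox4i1 and Cox6b1 also rose, by 0.43 ± 0.042 and 0.53 ± 0.046, and Cox6a1 by 0.24 ± 0.042. For Cox7b2, Cox8b and Cox8c a count of 0 allowed a share of at most 0.0125% of their set in any library, against the single forms Cox7b and Cox8a, which rose by 0.22 ± 0.042 and 0.22 ± 0.044. Under library totals alone Cox6a1, Cox7b and Cox8a did not pass, at 0.04, 0.02 and 0.02 (adjusted p = 0.458, 0.683 and 0.696), and in cells without Mki67 or Top2a Cox8a did not pass at 0.06 (adjusted p = 0.571). Cox6a2 lies opposite Itgad, which had 26 UMIs.

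**Figure D2:**
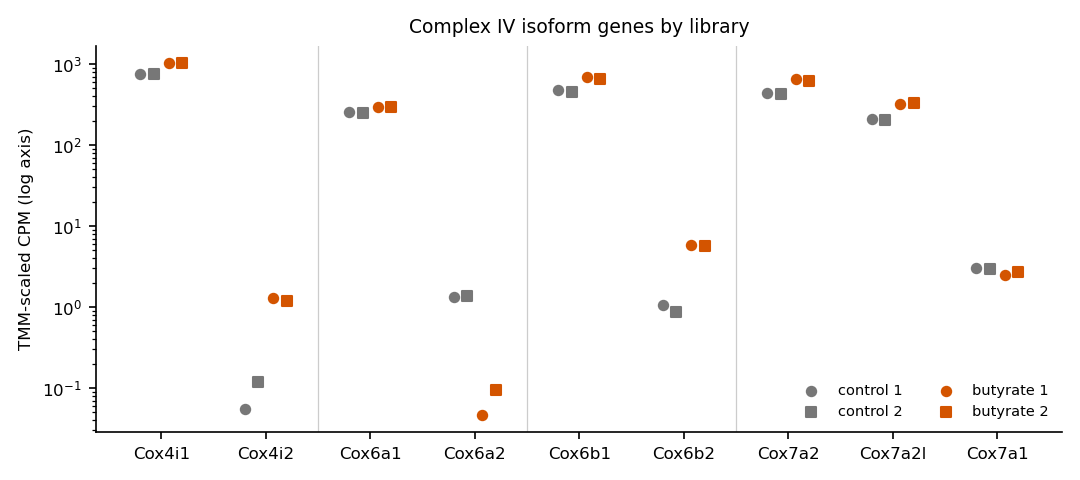
TMM-scaled CPM (log axis) of the complex IV isoform genes in each of the 2 control (grey) and 2 butyrate (orange) libraries; grey lines part the subunit sets. Cox4i2 and Cox6b2 are higher and Cox6a2 lower in both butyrate libraries, and each lies far below the common form of its subunit.

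In complex V, 10 of 17 nuclear subunits rose, 3 fell and 4 did not pass, with a median of 0.16, the lowest of the complexes; with library totals alone this median turned to -0.04. The parts of the enzyme differed. Atp5h, a subunit of the peripheral stalk that holds the catalytic head in place, went from 670 and 654 CPM to 1032 and 1055 CPM (0.66 ± 0.042, adjusted p = 2.52e-09). Atp5l, a small membrane subunit at the dimer interface, went from 571 and 580 CPM to 903 and 879 CPM (0.63 ± 0.042, adjusted p = 3.77e-09). Atp5d, of the rotating central stalk, rose from 732 and 709 CPM to 1044 and 1063 CPM (0.55 ± 0.043, adjusted p = 1.89e-08). All 4 peripheral stalk genes and all 5 small membrane subunit genes were called higher, although the values of Atp5o, Atp5k and Atp5j2 fell below 0 under library totals alone. The calls of Atp5k and Atp5j2 were also lost without butyrate replicate 1 (adjusted p = 0.340 and 0.1135) or without control replicate 2 (0.0806 and 0.0586), and that of Atp5k without control replicate 1 (0.0780). With the mouse as a block Atp5c1, the gamma subunit of the central stalk, also passed, at 0.09 (adjusted p = 0.0413), giving 11 higher.

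Over all kept cells, the catalytic head and the proton-carrying ring did not share this rise. Atp5a1, the alpha subunit, was lower at 425 and 444 CPM in control and 368 and 369 CPM in butyrate (-0.24 ± 0.043, adjusted p = 0.000147), and Atp5b, the catalytic beta subunit, did not pass at 0.02 ± 0.043. The ring protein is encoded by 3 genes whose mature products are identical. Atp5g1 fell by 0.13 ± 0.044 (adjusted p = 0.0194) and Atp5g3 by 0.13 ± 0.042 (adjusted p = 0.0118), while Atp5g2 did not pass at -0.06 ± 0.042. Both small decreases were lost under several alternatives: without butyrate replicate 2 the adjusted p was 0.203 for Atp5g1 and 0.0965 for Atp5g3, and with each cell thinned to 8000 UMIs it was 0.697 (at -0.02) and 0.0735. For Atp5g1 it was also 0.0656 without control replicate 2, 0.0657 without a mitochondrial limit, 0.0709 over barcodes of 6500 or more UMIs and 0.165 in cells with Mki67 or Top2a. Over all kept cells their mix hardly moved: Atp5g1 gave 31.1 to 32.6%, Atp5g2 45.6 to 47.8% and Atp5g3 21.1 to 21.8% of the set's UMIs across the 4 libraries. In cells without Mki67 or Top2a these genes moved apart, with Atp5g1 and Atp5g3 called higher and Atp5g2 called lower after butyrate. Reads of these 3 genes, and of other members with near-identical processed copies, may be assigned to the wrong copy.

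Assembly factors insert cofactors or hold partly built complexes, and are not part of the finished enzyme. Of the 12 members, 10 rose and 1 fell, with a median of 0.37. Under library totals alone 6 were higher (median 0.17), with the DESeq2 Wald test 8 were, and in cells without Mki67 or Top2a 5 were. Sdhaf4, which helps the flavinated Sdha join Sdhb, rose from 20.9 and 20.2 CPM to 34.5 and 35.5 CPM (0.77 ± 0.052, adjusted p = 3.9e-09), in contrast to Sdha itself. All 4 complex II factors rose, the others by 0.44 to 0.78. Ndufaf2 and the methyltransferase Ndufaf7, both of complex I, rose by 0.60 ± 0.051 (adjusted p = 5.92e-08) and 0.52 ± 0.054 (adjusted p = 4.53e-07). Ndufaf8 was the single decrease, from 81.1 and 77.7 CPM to 63.5 and 58.3 CPM (-0.38 ± 0.049, adjusted p = 5.78e-06). Sdhaf4, Ndufaf7 and Ndufaf8 did not pass in cells without Mki67 or Top2a, at 0.35, 0.27 and -0.14 (adjusted p = 0.103, 0.306 and 0.416).

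The genes of the mitochondrial genome showed a different pattern. Of the 7 complex I subunits, 5 fell and none rose; the complex III gene fell; of the 3 complex IV genes 1 rose and none fell; of the 2 complex V genes 1 fell. The 3 complex IV genes thus lay at the top of the mitochondrial set, with mt-Co1 at 5894 and 5737 CPM in control and 5992 and 6622 CPM in butyrate (0.12 ± 0.049, adjusted p = 0.0451), a rise that turned to -0.08 under library totals alone. It did not pass without control replicate 1, control replicate 2 or butyrate replicate 2, with adjusted p values of 0.101, 0.209 and 0.495, nor without a limit on mitochondrial UMIs (0.05, adjusted p = 0.363). mt-Co2 and mt-Co3 did not pass at -0.01 ± 0.043 and -0.05 ± 0.043.

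The largest mitochondrial change was that of mt-Nd6, the only protein gene read from the light strand of the circle (chrM:13552-14070, minus strand). It was at 56.5 and 49.0 CPM in control and 33.5 and 30.0 CPM in butyrate (-0.73 ± 0.078, adjusted p = 3.79e-05). Its transcript is known to carry little or no poly(A) tail, which the library chemistry primes on, and it lies opposite mt-Nd5, which held 71177 UMIs against 10452. mt-Nd5 itself went from 308 and 293 CPM to 272 and 268 CPM (-0.16 ± 0.044, adjusted p = 0.00499). mt-Cytb, the complex III subunit that holds both quinone sites, fell from 4503 and 4459 CPM to 3744 and 3827 CPM (-0.24 ± 0.041, adjusted p = 8.41e-05). In each of these 3 genes both butyrate libraries lay below both controls. In cells without Mki67 or Top2a, mt-Cytb and mt-Nd5 did not pass, at -0.11 and -0.11 (adjusted p = 0.137 and 0.312).

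Of the other complex I genes, mt-Nd3 fell by 0.24 ± 0.046 (adjusted p = 0.000229) and mt-Nd2 by 0.23 ± 0.042 (adjusted p = 0.000149). Neither passed in cells without Mki67 or Top2a, with mt-Nd3 at -0.02 (adjusted p = 0.849) and mt-Nd2 at -0.12 (adjusted p = 0.136). mt-Nd1 fell by 0.12 ± 0.041 (adjusted p = 0.0135), and mt-Nd4 did not pass at -0.06 ± 0.043. The call of mt-Nd1 was lost without butyrate replicate 1, butyrate replicate 2 or control replicate 2, with adjusted p values of 0.0674, 0.0564 and 0.0574, and in cells without Mki67 or Top2a mt-Nd1 was higher, at 0.16 (adjusted p = 0.0436). mt-Nd4l was at 209 and 191 CPM in control and 190 and 161 CPM in butyrate; it did not pass (-0.19 ± 0.093, adjusted p = 0.124), but with the mouse as a block its adjusted p was 0.000173, and without butyrate replicate 1 it was 0.000244. In complex V, mt-Atp8 fell from 50 and 46.5 CPM to 42.6 and 38.3 CPM (-0.25 ± 0.058, adjusted p = 0.00136). mt-Atp6 did not pass at -0.08 ± 0.041 (adjusted p = 0.0874), and with the mouse as a block its adjusted p was 0.0105. mt-Nd4l overlaps mt-Nd4, and mt-Atp6 overlaps mt-Atp8 and mt-Co3, on the same strand and partly in shared transcripts, so counts of these neighbours are uncertain.

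**Figure D3:**
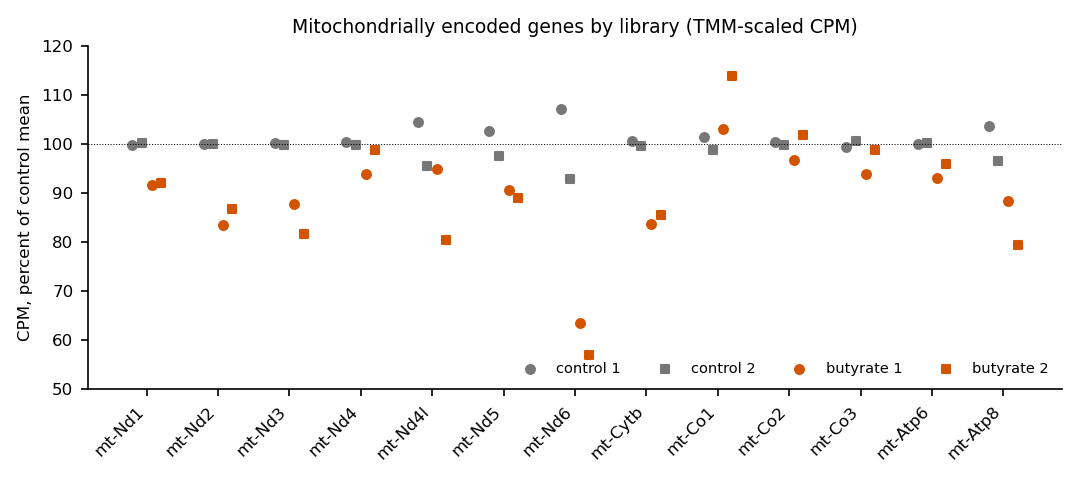
Level of each of the 13 mitochondrial genes in each library, as a percent of the mean of the 2 control libraries (TMM-scaled CPM; the vertical axis runs from 50 to 120 percent). Both butyrate libraries lie below both controls for every gene except mt-Co1, where they are higher on this scale but not under library totals alone, and mt-Co2, where the groups overlap.

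The opposite movement also shows in each library's share of UMIs, and in the ratio of the sums, which does not depend on scaling between libraries. The 82 nuclear subunit genes made up 2.64 and 2.63% of all UMIs in control and 2.87 and 2.78% in butyrate (2.64% ± 0.0086 and 2.82% ± 0.059, SD, n = 2 each). The 13 mitochondrial genes made up 4.68 and 4.72% in the control libraries against 3.82 and 4% after butyrate (4.70% ± 0.025 and 3.91% ± 0.13, SD, n = 2 each). The ratio of mitochondrial to nuclear subunit UMIs was 1.77 and 1.79 in the control libraries against 1.33 and 1.44 after butyrate, a mean log2 difference of -0.37. These are descriptions without a test.

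By complex, the nuclear sum rose most for complex IV, from 0.647% ± 0.00074 to 0.743% ± 0.014 of UMIs (SD, n = 2 each). That of complex II fell from 0.0449% ± 0.00052 to 0.0422% ± 0.00015, in contrast to the calls of its 3 other genes on the TMM scale. In cells without Mki67 or Top2a the complex II share rose instead, from 0.0353 to 0.0397%. The mitochondrial sum fell in each complex: from 1.004% ± 0.0047 to 0.789% ± 0.0090 for complex I, from 0.480% ± 0.00068 to 0.353% ± 0.0059 for complex III, from 2.45% ± 0.014 to 2.14% ± 0.10 for complex IV and from 0.768% ± 0.0065 to 0.631% ± 0.014 for complex V. All of these sums are shares of library totals, without the TMM scaling used for the calls. In each of them the 2 groups lay further apart than their replicates. On the TMM scale, no mitochondrial complex IV gene was called lower and mt-Co1 was called higher, so the fall of complex IV is not seen there.

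The mitochondrial values depended on how cells with many mitochondrial UMIs were treated, and more such cells were removed from control. Without any limit the log2 difference of the ratio was -0.46, and with a limit of 5% it was -0.19. At 5%, 2 mitochondrial genes were higher and 2 lower, with a median of 0.02, in place of 1 and 7 with a median of -0.16. The decreases of mt-Nd1, mt-Nd2, mt-Nd3, mt-Nd5 and mt-Atp8 did not pass at 5% (adjusted p = 0.181, 0.282, 0.318, 0.765 and 0.539, with mt-Nd1 and mt-Nd5 above 0), and those of mt-Nd1, mt-Nd5 and mt-Atp8 did not pass in thinned cells (0.0750, 0.0538 and 0.0748). The nuclear counts moved less, to 53 higher and 11 lower. Malat1, a nuclear RNA that is relatively high in damaged cells, made up 0.508 and 0.470% of UMIs in control and 0.671 and 0.674% in butyrate. Neat1, the other nuclear RNA checked, lay the other way, at 57.0 and 51.0 CPM in control and 33.2 and 39.2 CPM in butyrate. In cells without a UMI of Mki67 or Top2a, Malat1 made up 0.695 and 0.615% in control and 0.618 and 0.655% in butyrate, so the groups overlapped there. In barcodes of 10 to 100 UMIs, which hold mainly free RNA, mitochondrial genes gave 1.03 and 1.33% of UMIs in control and 1.15 and 2.06% in butyrate, and nuclear subunits 2.95 and 2.93% against 3.2 and 2.94%. The part of damaged cells and free RNA in the result was not tested beyond these values.

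**Figure D4:**
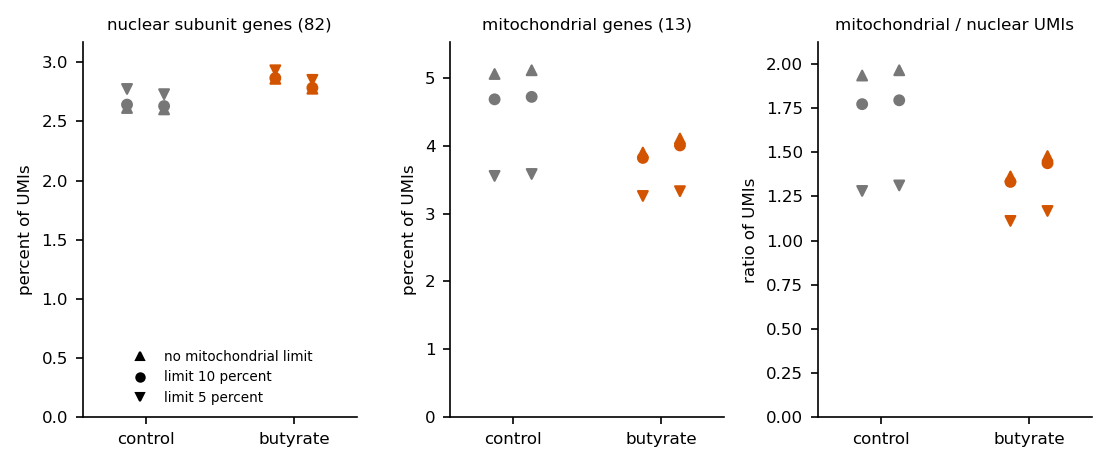
Share of all UMIs from the 82 nuclear subunit genes (left), from the 13 mitochondrial genes (centre) and the ratio of mitochondrial to nuclear UMIs (right), per library, with no limit on mitochondrial UMIs per cell (upward triangles), a limit of 10 percent (circles) and of 5 percent (downward triangles). The ratio is lower in both butyrate libraries at each limit, and the distance narrows as the limit tightens.

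Most nuclear subunits are short proteins, and the direction of change was related to coding length. Of the 44 nuclear subunit genes averaging 20 CPM or more and of at most 450 coding bases, a limit chosen after seeing the values, 34 rose and 3 fell (median 0.30). Of the 33 longer ones, 19 rose and 6 fell (median 0.13). The same held for all tested genes at that level: 64.7% of 538 short genes were higher and 14.7% lower (median 0.26), against 36.4% higher and 43.3% lower of 4240 longer genes (median -0.041). Spearman's rho between coding length and log2 fold change was -0.29 over the 77 subunit genes and -0.44 over 4778 genes. These correlations are across genes that share the same 4 libraries, and are descriptions. Of the 10 subunits that fell, Ndufs1, Sdha, Uqcrc1 and Atp5a1 are among the large catalytic or core proteins of their complexes. The others that fell were Ndufb2, Ndufs7, Ndufs8, Cox6a2, Atp5g1 and Atp5g3. Not all large proteins of this kind fell, since Atp5b and Uqcrc2 did not pass.

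Promoters of respiratory genes are known for sites of NRF1 and of the ETS factor GABP, which led to a search of the windows from 250 bases before to 50 bases after each start site (RefSeq, GRCm38.p6). A window was found for 66 of the 82 nuclear subunit genes. The NRF1 motif, the letters GCGCA followed by their reverse complement TGCGC, which reads the same on both strands, was in the windows of 5 of these genes (7.58%), against 1.07% of 27025 genes: 3 of the 5 rose and 1 fell, and of the 61 genes without it 43 rose and 6 fell. The ETS motif CCGGAAG, searched on both strands, was in 17 (25.8%), against 9.93%: 14 of the 17 rose and 1 fell, and of the 49 genes without it 32 rose and 6 fell. A match is a description of these letters and no evidence of binding. The NRF1 matches before the start site are shown with 10 bases on each side, the motif in capitals, since they fall in genes that rose (Ndufa11, Cox6a1, Atp5k) and in 1 that did not pass (Atp5g2).
Ndufa11: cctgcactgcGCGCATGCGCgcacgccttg
Cox6a1: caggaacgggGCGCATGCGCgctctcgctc
Atp5k: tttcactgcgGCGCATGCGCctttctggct
Atp5g2: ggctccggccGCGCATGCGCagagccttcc

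These stretches lie at chr17:56717692-56717721 (plus strand), chr5:115349101-115349130, chr5:108434430-108434459 and chr15:102671070-102671099 (minus strand), beginning the motif 60, 162, 50 and 42 bases before the start site. For the ETS motif, 1 or more genes of each complex that rose are shown, with the motif or its reverse complement CTTCCGG in capitals.
Ndufb6: cgtccttgttCTTCCGGtcccctcccc
Sdhd: cgtctcctgcCTTCCGGttcacgcttc
Uqcr11: tctctcctccCCGGAAGtagatgtcaa
Cox6b1: cctctcgcagCTTCCGGccagtcggaa
Atp5h: aaggagagaaCTTCCGGcaactctctt
Atp5l: cttcaccgatCTTCCGGaccaacatga

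All 6 are on the minus strand, at chr4:40279637-40279663, chr9:50603879-50603905, chr10:80406871-80406897, chr7:30626126-30626152, chr11:115419941-115419967 and chr9:44920938-44920964, and the motif begins 232, 46, 66, 28, 38 and 212 bases before the start site. The stretches of Cox6a1, Atp5k, Atp5g2, Cox6b1 and Atp5h overlap an annotated exon. The windows of the subunit genes held a median of 19 CpG pairs, against 7 over all windows.

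The nuclear and mitochondrial sums also varied between cells. Each cell was thinned to 8000 UMIs, which left out 54 to 112 shallower cells per library, and cells were divided by whether they held a UMI of Mki67 or Top2a, transcripts of dividing cells. Such cells made up 85.9 and 85.0% of thinned cells in control and 85.6 and 84.3% in butyrate. In control, the median cell had 208 and 207 nuclear subunit UMIs with Mki67 or Top2a, and 175 and 179 without. In butyrate the medians were 225 and 220 with, and 230 and 224 without. Cells without these transcripts were thus lower in both control libraries and slightly higher in both butyrate libraries. Mitochondrial medians were lower without than with these transcripts in all 4 libraries: 334 and 336 against 400 and 403 in control, and 282 and 295 against 316 and 332 in butyrate. Cells without numbered 281, 377, 361 and 407 in the 4 libraries.

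**Figure D5:**
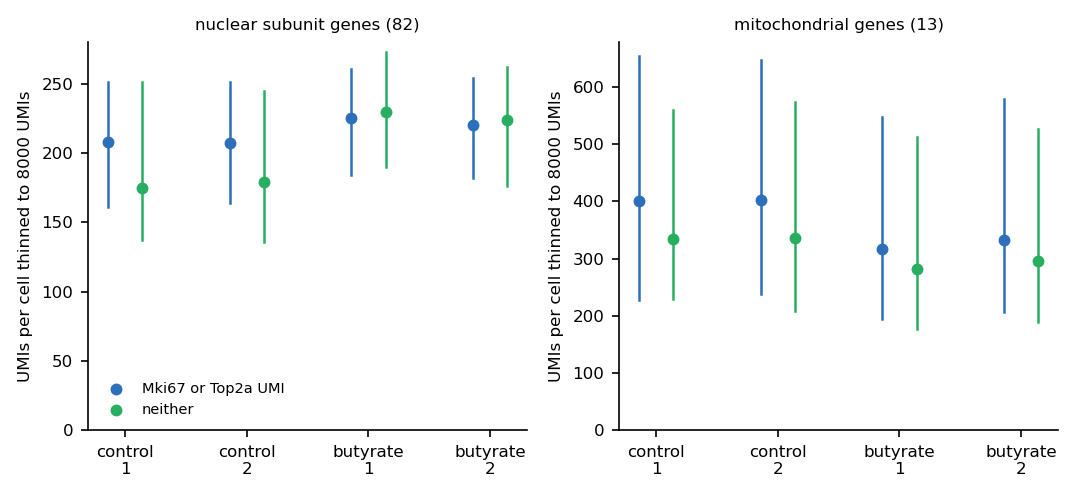
UMIs per cell from nuclear subunit genes (left) and mitochondrial genes (right) after thinning to 8000 UMIs, by library, in cells with (blue) and without (green) a UMI of Mki67 or Top2a; points are medians over cells and lines run from the 10th to the 90th percentile. Nuclear medians of cells without are 175 and 179 in the control libraries against 230 and 224 after butyrate.

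Whether the contrast between these cells (without minus with Mki67 or Top2a) differed between treatments was tested on summed UMIs of each class and library, with the library as a block; this test was added after seeing the data. In control, 31 nuclear subunits were higher and 25 lower in cells without, against 25.7% and 22.4% of 11396 genes (48.1% in either direction). In butyrate 43 were higher and 3 lower, against 12.6% and 13.3% (25.9% in either direction). These calls are on the TMM scale, and the contrast was not fitted under library totals alone. As a mean share of UMIs, nuclear subunits were at 2.31% in control cells without and 2.59% in those with. In butyrate the shares were 2.83 and 2.76%. The counts in control thus lean the other way from the summed share, and those in butyrate are more one-sided than it. The contrast itself was greater in butyrate for 26 nuclear subunits and smaller for 9, against 8.05% and 10.8% of all genes (18.9% in either direction), with a median difference of 0.081 beside -0.057 over all genes. By complex the counts greater and smaller were 11 and 2 of 37 in complex I, 1 and 0 of 4 in complex II, 3 and 2 of 8 in complex III, 3 and 3 of 16 in complex IV, and 8 and 2 of 17 in complex V. Of the mitochondrial genes 1 was greater and 4 were smaller; the latter were mt-Co1, mt-Co2, mt-Co3 and mt-Atp6.

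Genes on each side of this contrast show the 2 patterns. Ndufa12, an accessory complex I subunit, was at 153 and 159 CPM in control cells without Mki67 or Top2a and 194 and 211 CPM in control cells with them, but at 338 and 335 against 293 and 297 CPM in butyrate. The contrast was thus below 0 in control (-0.38) and above 0 in butyrate (0.19), with a difference of 0.57 ± 0.079 (adjusted p = 2.9e-11). Uqcrq, a small complex III subunit, was at 328 and 315 CPM in control cells without and 493 and 462 CPM in control cells with these transcripts, and at 574 and 534 against 571 and 536 CPM in butyrate (difference 0.57 ± 0.063, adjusted p = 2.2e-17). Both genes were lower in both kinds of control cell than in either kind of butyrate cell, and lowest in control cells without these transcripts.

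Cox7a2l and Uqcrh showed the reverse. Cox7a2l was at 414 and 362 CPM in control cells without Mki67 or Top2a and at 199 and 195 CPM in control cells with them, while the butyrate values were 366 and 393 against 317 and 316 CPM (difference -0.71 ± 0.07, adjusted p = 4.9e-22). Uqcrh was at 876 and 840 against 478 and 457 CPM in control and at 826 and 824 against 645 and 625 CPM in butyrate (difference -0.50 ± 0.053, adjusted p = 1.1e-18). For these genes the rise with butyrate lay in cells with Mki67 or Top2a, at 0.68 and 0.44, and the log2 fold changes in cells without were 0.02 and -0.0086.

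In cells without Mki67 or Top2a taken alone, 54 of 80 tested nuclear subunits were higher and 3 lower after butyrate, against 24.2% and 22.4% of all genes (46.6% in either direction), with a median of 0.35. There, Atp5g1 and Atp5g3, lower over all cells, were called higher at 0.45 and 0.31, and Atp5a1 was at 0.04. Atp5b was also called higher, at 0.43 (adjusted p = 3.97e-07), and Atp5g2 was called lower, at -0.31 (adjusted p = 0.000288). In cells with these transcripts, 54 of 82 were higher and 10 lower, against 31.4% and 30.3% (61.7% in either direction). Mitochondrial genes were 1 higher and 2 lower in cells without and 1 higher and 6 lower in cells with.

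Genes that serve the chain but lie outside the prefixes were given by list. Cytochrome c (Cycs), the carrier between complexes III and IV, went from 248 and 250 CPM to 446 and 429 CPM (0.81 ± 0.043, adjusted p = 3.13e-10), and Cyc1, the cytochrome c1 of complex III, rose by 0.29 ± 0.042 (adjusted p = 1.44e-05). Of 31 tested assembly factors of complexes III to V, 17 rose and 6 fell (median 0.26), among them the copper-handling factor Cox19 at 0.90 ± 0.047, Cmc2 at 0.66 ± 0.042 and the copper chaperone Sco2 at -0.65 ± 0.055. Of 7 further complex I assembly factors, 5 rose and 1 fell (median 0.32), with Nubpl at 0.51 ± 0.076, Ecsit at 0.41 ± 0.058 and Tmem126a at 0.32 ± 0.048.

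Of 23 genes for mitochondrial DNA upkeep, transcription and transcript stability, 8 rose and 6 fell (median -0.0043). Slirp, which stabilises mitochondrial messenger RNA with Lrpprc, rose by 0.57 ± 0.049, whereas Lrpprc itself fell by 0.23 ± 0.053 (adjusted p = 0.00119). Ssbp1, the mitochondrial single-strand binding protein, rose by 0.28 ± 0.041, and Polg, the catalytic subunit of the mitochondrial DNA polymerase, fell from 10.7 and 10.5 CPM to 5.95 and 5.65 CPM (-0.87 ± 0.076, adjusted p = 7.36e-08). Of 9 tested nuclear regulators, 1 rose and 6 fell (median -0.21). Myc, a driver of mitochondrial biogenesis, went from 80.0 and 73.6 CPM to 170 and 153 CPM (1.07 ± 0.056, adjusted p = 5.47e-09), whereas Gabpb2 and Gabpa, of the GABP complex, fell by 1.05 ± 0.052 and 0.38 ± 0.059. Gabpb1, the other gene of that complex listed, did not pass at 0.04 ± 0.057 (adjusted p = 0.586). Nrf1, whose motif was searched above, fell by 0.21 ± 0.050 (adjusted p = 0.00137). Ppargc1a, the coactivator known from muscle and brown fat, had 1 UMI over the 4 libraries.

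Of 13 coenzyme Q genes, 7 rose and 1 fell (median 0.22), with Coq10b at 1.21 ± 0.095, Coq3 at 0.53 ± 0.069 and Coq2 at 0.42 ± 0.054. Of 7 carriers and pores, 3 rose and 2 fell (median 0.075), with Vdac2 at 0.26 ± 0.043, Ucp2 at 0.17 ± 0.045 and Vdac3 at -0.12 ± 0.043; Ucp2 turned to -0.03 under library totals alone. The shares of these lists called higher and lower can be read beside the 36% and 35.7% of all genes.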

How the data were processed

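The authors deposited UMI counts per gene and barcode, one unfiltered matrix per library; Cell Ranger 4, Seurat 4.3 and mm10 are named in the submitters' processing notes. The sources used here give no annotation release, strand setting or use of intronic reads. Coordinates came from GENCODE M21 (GRCm38), which held 32158 of the 32285 gene IDs. From these counts, barcodes were kept with at least 10% of the 99th percentile of the top 3000 barcodes' UMIs, at least 500 genes and less than 10% mitochondrial UMIs; no doublets were removed. Sums per library were then compared with edgeR 4.0.16 (robust quasi-likelihood, TMM, filterByExpr, group only), with Benjamini-Hochberg adjustment over 13487 genes; standard errors are the fold change over the square root of F. DESeq2 1.42.0, other scalings, filters and left-out libraries were alternatives. The members, lists and tests were chosen with earlier results of these data known.

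The replicate numbers pair cultures of the same mouse, per the labels' library names; deviations from group means of same-mouse libraries correlated at 0.059. A fit with the mouse as a block is given where it changed a call. Named genes were all 13 mitochondrial genes, the 3 largest increases and 2 largest decreases past the threshold, at a mean of at least 20 CPM with groups apart, in each complex and among assembly factors, all isoform members, and up to 3 genes of smallest p per other list. Other genes named to fill out a part of a complex, a list or the cell contrast were chosen after their values were seen. Depth limits precision mainly for the rare isoforms; exact 95% intervals cover counting error only, and a share of 0 is limited by 3 counts. The edgeR scripts were tested on simulated data.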

Additional observations from a re-analysis of the deposited data

Results flagged for a closer look

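The contrast between cells without and with an Mki67 or Top2a UMI differed between butyrate and control, by the interaction test, for 26 nuclear subunit genes that were greater in butyrate and 9 that were smaller, and for 1 mitochondrial gene that was greater and 4 that were smaller. Among nuclear members that passed this test, the differences of the log2 contrast, butyrate minus control, that stood furthest above 0 were those of Ndufaf4 at 0.648, Ndufa12 at 0.573, Uqcrq at 0.57 and Ndufs6 at 0.533. Furthest below 0 were Cox7a2l at -0.709, Sdhaf2 at -0.58, Sdhaf4 at -0.575 and Uqcrh at -0.497. The cells without such a UMI numbered 281 and 377 in control and 361 and 407 in butyrate, so Ndufaf4, Sdhaf2 and Sdhaf4, each at 20.2 to 42.8 CPM in these cells, rest on fewer UMIs than the other 5 genes. Leaving out cells with exactly 1 UMI of Mki67 or Top2a gave 27 greater and 9 smaller nuclear subunits. Groups of 2 libraries are too small for a test of single libraries that stand apart.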

How the results depend on the processing

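The direction of the nuclear median, of the ratio of mitochondrial to nuclear UMIs and of both shares was the same under every alternative run; the mitochondrial median was not. Leaving out 1 library at a time, with the lone sample assumed to vary like the other group, gave 52 to 54 nuclear subunits higher and 7 to 12 lower (median 0.2281 to 0.268), 0 to 1 mitochondrial genes higher and 6 to 7 lower (median -0.1954 to -0.1261), and 22 to 24, 2 to 3, 5 to 6, 13 and 8 to 11 higher in complexes I to V. The log2 ratio then ranged from -0.4205 to -0.3103, the difference in mitochondrial share from -0.8805 to -0.6965 percentage points and that in nuclear share from 0.148 to 0.2308.

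The nuclear median was 0.2787 with the DESeq2 Wald test and with DESeq2 size factors, 0.2813 over all barcodes of 6500 or more UMIs, 0.2872 in thinned cells, 0.25 without a filter on low counts, 0.2793 without a mitochondrial limit, 0.219 at a limit of 5% and 0.3545 in cells without Mki67 or Top2a, where 3 subunits were lower. The mitochondrial median was -0.1412 with the DESeq2 Wald test, -0.1413 with its size factors, -0.17 without a filter on low counts, and -0.115 in cells with Mki67 or Top2a. It was -0.1106 in thinned cells (4 lower) and -0.0646 in cells without Mki67 or Top2a (2 lower). Barcodes of 6500 or more UMIs gave 0 higher and 11 lower (-0.2195), no mitochondrial limit 0 and 11 (-0.2175), and the limit of 5% gave 2 and 2, with the median reversed to 0.01715.

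With library totals alone, nuclear subunits were 34 higher and 25 lower (median 0.065), mitochondrial genes 0 and 12 (median -0.355), and the higher counts of complexes I, II, IV and V were 15, 1, 8 and 6; the median of complex V reversed to -0.0425, Sdhb to -0.069 and mt-Co1 to -0.082. The mitochondrial share differed by -1.08 points without a limit, -0.274 at 5%, -0.545 in cells without Mki67 or Top2a and -1.097 over barcodes of 6500 or more UMIs, and the log2 ratio by -0.457, -0.187, -0.475 and -0.463. The nuclear share differed by 0.518 in cells without Mki67 or Top2a. Leaving out cells with 1 UMI of Mki67 or Top2a gave 2 mitochondrial genes with a greater contrast.

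In cells without Mki67 or Top2a the values of Uqcrc1 (0.0023), Uqcrh (-0.0086), Ndufa4 (0.277), Atp5a1 (0.045), Atp5g1 (0.45), Atp5g3 (0.315), mt-Nd1 (0.159), mt-Nd4l (0.087) and mt-Co1 (-0.051) reversed. At a limit of 5%, mt-Nd1 (0.0705), mt-Nd4 (0.074), mt-Nd5 (0.017), mt-Co2 (0.127), mt-Co3 (0.104) and mt-Atp6 (0.069) reversed. Ndufa4 and mt-Co2, both near 0, also reversed to 0.00883 and 0.0035 with the DESeq2 Wald test, 0.0087 and 0.0035 with its size factors, 0.015 and 0.014 in thinned cells, to 0.028 over barcodes of 6500 or more UMIs and 0.025 without a limit for Ndufa4, and to 0.023 in cells with Mki67 or Top2a for mt-Co2. Leaving out 1 library, Ndufa4 ranged from -0.1257 to 0.111, above 0 without butyrate replicate 2 (0.0017) or control replicate 2, and mt-Co2 from -0.0464 to 0.025, above 0 without butyrate replicate 1. The cause of these reversals was not tested.

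With the mouse as a replicate block, 57 nuclear subunits were higher and 12 lower (median 0.265) and 1 mitochondrial gene was higher and 9 lower (median -0.155); among all members the block changed the calls of Ndufa2, Ndufa6, Atp5c1, mt-Nd4l and mt-Atp6 and no other. Depth limits the rare complex IV forms, at 3 to 374 UMIs a library.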
